A study of Mus musculus with 2 samples.

Results

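The genes Esrrb, Tfcp2l1, Tbx3 and Prdm14, which encode transcriptional regulators of the naive pluripotency network, were examined in a map of acetylated histone H3 (H3K56ac) in mouse embryonic stem cells. Chromatin immunoprecipitation followed by sequencing (ChIP-seq) of E14Tg2a cells, an established male line, gave 1 H3K56ac library and 1 library of input DNA. The labels name no genetic change or treatment, and the cells were kept in serum with leukaemia inhibitory factor (LIF). The deposited H3K56ac list was used, and the input library was not analysed here. The list gives the chromosome, start and end of 92549 called intervals on genome build mm9, without reads, heights or scores. Depth is therefore unknown, intervals can be graded by their width alone, and there is no replicate. Members were the intervals that overlapped by 1 bp or more the window set for each gene: chr12:87690000-87875000 for Esrrb, chr1:120500000-120600000 for Tfcp2l1, chr5:120095000-120160000 for Tbx3 and chr1:13080000-13140000 for Prdm14. The windows held 169 of the 92549 intervals (0.183%). An mm9 annotation was not used here, so an interval carries the name of its window, and exons, introns and start sites inside a window were not assigned.

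H3K56ac is an acetyl mark in the globular core of histone H3, close to where DNA enters and leaves the nucleosome. The study asked about its relation to Oct4, a transcription factor that maintains pluripotency. Naive pluripotency, the state of the preimplantation epiblast, is held in culture by a network of transcription factors downstream of LIF, Wnt and bone morphogenetic protein signals. Esrrb is an orphan nuclear receptor that binds DNA together with Oct4, Sox2 and Nanog at many enhancers and acts downstream of GSK3 inhibition. Tfcp2l1 is a factor of the grainyhead-like CP2 family and a target of LIF signalling. Tbx3 is a T-box factor that supports self-renewal and is also used in endoderm, limb and heart development. Prdm14 is a PR-domain zinc-finger protein that keeps fibroblast growth factor receptor signalling and de novo DNA methylation low in naive and primordial germ cells.

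RefSeq promoter sequences of assembly GRCm38.p6 were matched by symbol for 2 of the 4 genes, Esrrb with 2 starts and Tfcp2l1 with 1. They are shown because these genes were the ones whose start-site sequence could be searched for motifs of pluripotency factors. Tbx3 and Prdm14 were not matched. Each line gives the 250 bases before a start, 5′ to 3′ on the + strand, and capitals mark the only motif found. The positions are those of GRCm38.p6 and cannot be set beside the mm9 windows, so whether an interval lies on these bases was not analysed here.
Esrrb first start, chr12:86360867-86361116: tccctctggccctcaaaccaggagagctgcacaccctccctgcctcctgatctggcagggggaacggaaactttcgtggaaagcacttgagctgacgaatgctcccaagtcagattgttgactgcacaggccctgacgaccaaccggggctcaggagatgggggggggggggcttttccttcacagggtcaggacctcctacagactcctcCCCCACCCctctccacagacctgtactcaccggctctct
Esrrb second start, chr12:86421394-86421643: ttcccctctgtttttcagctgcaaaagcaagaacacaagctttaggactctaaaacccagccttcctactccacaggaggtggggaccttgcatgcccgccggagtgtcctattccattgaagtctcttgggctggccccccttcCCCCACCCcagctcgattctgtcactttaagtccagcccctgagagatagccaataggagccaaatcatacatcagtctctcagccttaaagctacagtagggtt
Tfcp2l1 start, chr1:118627695-118627944: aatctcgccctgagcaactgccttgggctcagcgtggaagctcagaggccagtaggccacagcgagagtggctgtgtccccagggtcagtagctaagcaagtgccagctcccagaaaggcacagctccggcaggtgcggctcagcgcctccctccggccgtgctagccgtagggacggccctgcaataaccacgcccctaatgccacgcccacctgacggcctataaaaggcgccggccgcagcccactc
The capitals are CCCCACCC, a core of sites bound by Klf factors, which was searched on both strands and lies in 9.05% of the 32851 promoters of this length. It was present before both Esrrb starts, beginning 39 and 105 bases ahead of them, and its letters were not in the 250 bases before the Tfcp2l1 start. The Esrrb motif TCAAGGTCA (reverse complement TGACCTTGA, 0.387% of all promoters) and the Oct4 octamer ATGCAAAT (reverse complement ATTTGCAT, 1.6%) were not in any of the 3 sequences. A pair of exact spellings of the composite Sox2-Oct4 motif, which contain the octamer, had 0 matches in the 32851 promoters, so that search says nothing about the 3. A match is a run of letters and was not tested as a binding site.

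All 4 windows held many more H3K56ac intervals per base than the rest of their chromosomes between the first and the last interval listed. The Esrrb window held 77 intervals in 185.0 kb, the Tbx3 window 45 in 65.0 kb, the Tfcp2l1 window 30 in 100 kb and the Prdm14 window 17 in 60.0 kb. Per 10 kb, Tbx3 was the densest with 6.92 intervals (exact Poisson 95% interval 5.05 to 9.26), followed by Esrrb with 4.16 (3.28 to 5.20), Tfcp2l1 with 3.00 (2.02 to 4.28) and Prdm14 with 2.83 (1.65 to 4.54). These intervals cover counting error only and treat called intervals as independent, which neighbouring ones are not, so they are too narrow. The density was 16.2-fold that of the rest of the chromosome at Tbx3 (11.8 to 21.7), 14.9-fold at Esrrb (11.7 to 18.6), 10.5-fold at Tfcp2l1 (7.09 to 15.0) and 9.91-fold at Prdm14 (5.77 to 15.9). This order depends on the window edges: with 25 kb added on each side the folds were 12.3 at Esrrb, 11.8 at Prdm14, 11.2 at Tbx3 and 7.01 at Tfcp2l1.

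Counted in bases, the order of the loci at the set window edges was the same. Intervals covered 20.8% of the Tbx3 window (13550 bp), 13.7% of the Esrrb window (25400 bp), 9.75% of the Tfcp2l1 window (9750 bp) and 8.25% of the Prdm14 window (4950 bp). The rest of chromosomes 5, 12 and 1 was covered to 0.697%, 0.517% and 0.521% (the last without the Tfcp2l1 window). Coverage was thus 29.9-fold that of the rest of the chromosome at Tbx3, 26.5-fold at Esrrb, 18.7-fold at Tfcp2l1 and 15.8-fold at Prdm14. In every window the fold was larger in bases than in intervals.

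**Figure D1:**
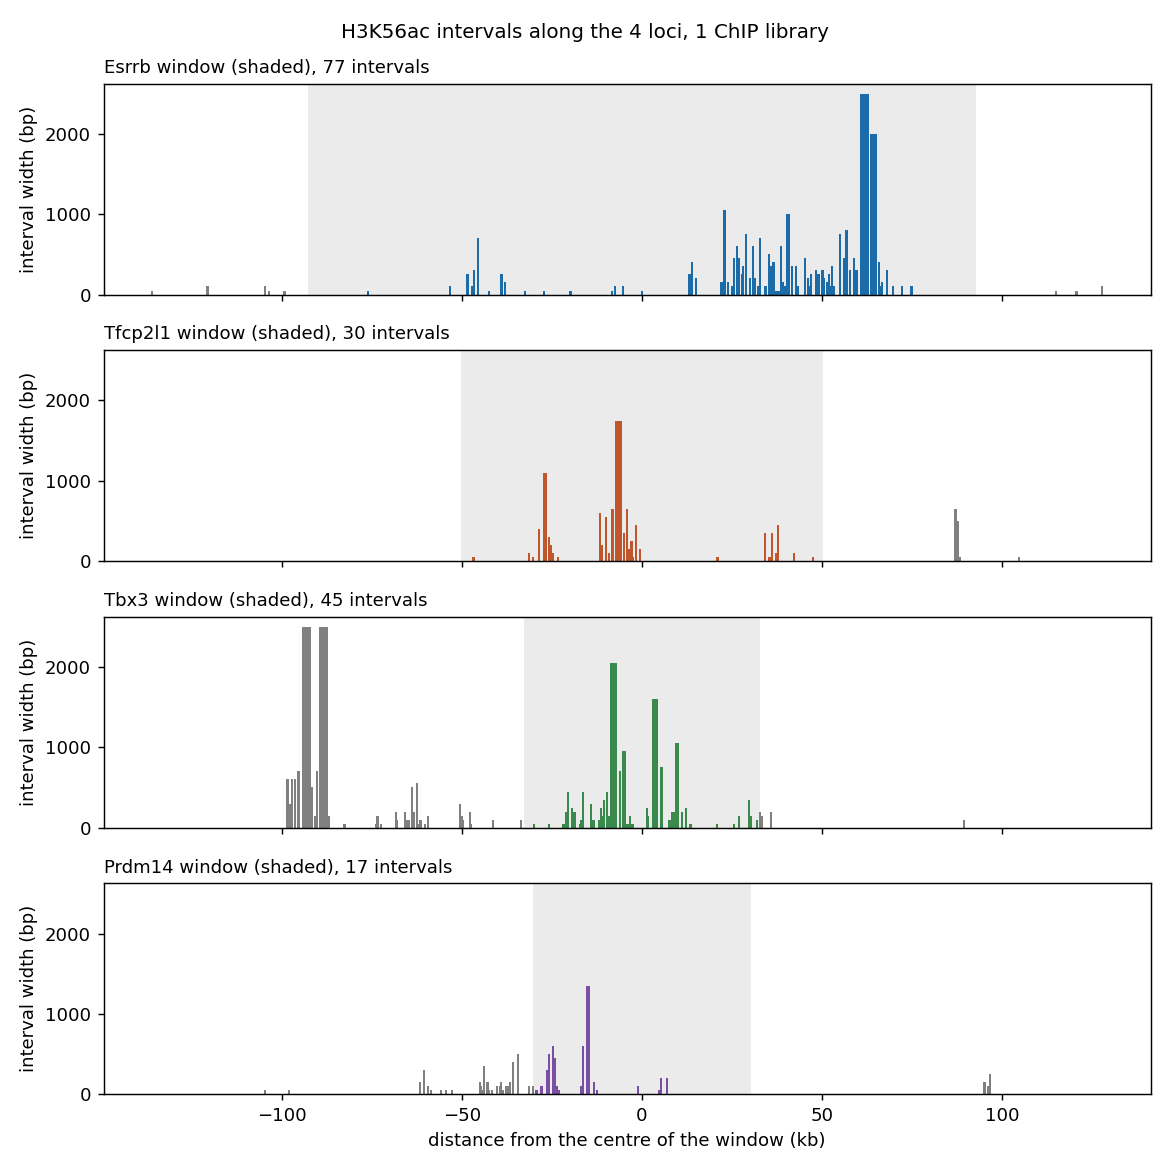
H3K56ac intervals along the 4 loci in 1 ChIP library: the x axis is the distance from the centre of each window in kb, bar height is interval width in bp, the window is shaded, members are coloured, and intervals up to 75 kb outside it are grey. Bars are drawn at least 0.6 kb wide so that short intervals can be seen. Esrrb intervals crowd toward the right side of the window, and the Tbx3 and Prdm14 intervals run on past its left edge.

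The loci were compared with one another by the ratio of intervals per kb, as a description over all 6 pairs of loci. Tbx3 exceeded Esrrb 1.66-fold (exact conditional binomial 95% interval 1.13 to 2.43), Tfcp2l1 2.31-fold (1.42 to 3.79) and Prdm14 2.44-fold (1.37 to 4.55). For Esrrb against Tfcp2l1 the ratio was 1.39 (0.899 to 2.19), for Esrrb against Prdm14 1.47 (0.861 to 2.65) and for Tfcp2l1 against Prdm14 1.06 (0.566 to 2.05). The last 3 intervals include equality, so Esrrb, Tfcp2l1 and Prdm14 did not differ beyond counting error. Differences of up to 2.65-fold stay within these intervals. All 6 intervals treat neighbouring called intervals as independent and are too narrow, so those that exclude equality describe counting error only and are no test of a difference. With 25 kb added on each side, Tbx3 still had the most intervals per 10 kb (4.78, against 3.45 at Esrrb, 3.36 at Prdm14 and 2.00 at Tfcp2l1). Its ratio was then 1.39 to Esrrb, 2.39 to Tfcp2l1 and 1.42 to Prdm14. That of Tfcp2l1 to Prdm14 turned from 1.06 to 0.595.

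To see how usual such windows are, every window of the same length on the same chromosome, starting every 1 kb between its first and last interval, was counted. Of the 149312 windows as long as that of Tbx3 on chromosome 5, 0.0563% held at least 45 intervals and 0.0442% at least as many interval bases. For Esrrb, 0.269% of 117721 windows on chromosome 12 reached its count and 0.263% its bases. For Tfcp2l1, 1.45% of 192578 windows on chromosome 1 reached the count and 0.57% the bases. For Prdm14, 2.13% of 192618 windows were at its count or above and 1.26% at its bases or above, the largest shares of the 4 at these edges. With 25 kb added on each side the count share was 0.922% for Prdm14 and 3.26% for Tfcp2l1. The windows overlap one another and include stretches without genes or mappable sequence, so these shares describe rank and carry no p-value.

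The median window of these lengths held 1 interval on chromosome 12 and 0 on chromosomes 1 and 5. Between 45.7% (Esrrb length) and 65.0% (Prdm14 length) of windows held none. Windows whose starts were no more than a window length apart were taken as 1 place. Apart from windows that overlap the locus itself, the Esrrb count was reached at 2 separate places on chromosome 12 and the Tbx3 count at 5 on chromosome 5. The Tfcp2l1 count was reached at 37 other places on chromosome 1, and the Prdm14 count at 68, the stretch just before its window among them, so Prdm14 had many equals on its own chromosome. The highest count in a window of the same length was 130 for Esrrb, 68 for Tfcp2l1, 50 for Tbx3 and 51 for Prdm14.

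**Figure D2:**
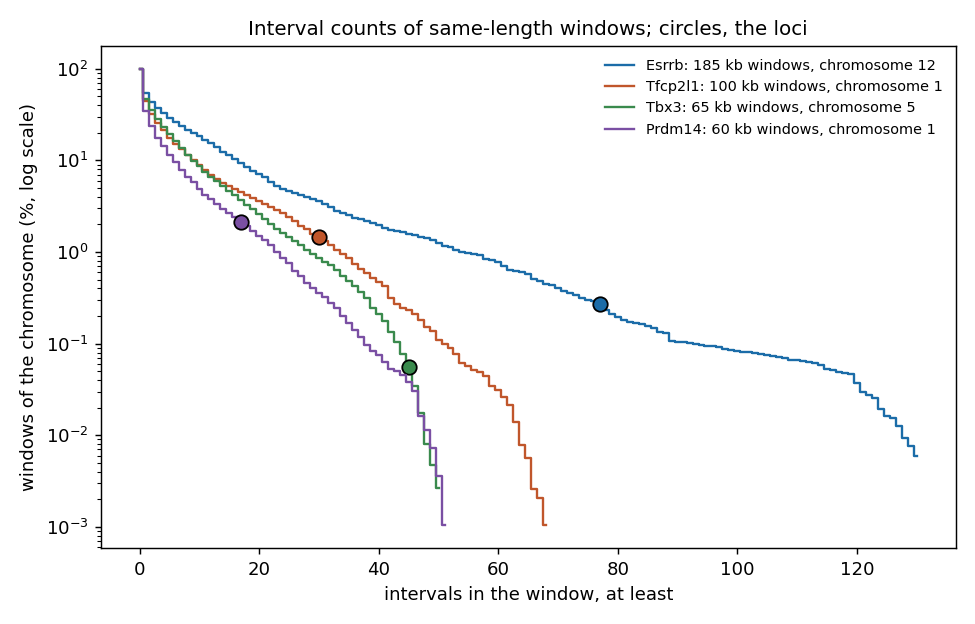
Share of all same-length windows of the chromosome (%, log scale) that hold at least the number of H3K56ac intervals on the x axis, 1 line per locus length and chromosome, with circles at the loci. Tbx3, at 45 intervals, lies near the end of its line (0.0563%), and Prdm14, at 17, lies at 2.13%.

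At Esrrb the intervals were concentrated on 1 side of the window. The first lay 16.4 kb inside the window and the last ended 17.4 kb before its end, so the empty margins were alike. When intervals less than 12500 bp apart were joined, 61 of the 77 fell in a cluster of 62.0 kb (chr12:87795651-87857650). This cluster had 23000 bp of interval sequence (37.1% of its length), and 28 of the 22232 clusters of the list, itself included, had as many bases or more (0.126%). RefSeq places Esrrb on the + strand, so the cluster lies toward the end of the window in the direction of transcription. A second, thinner cluster of 15 intervals and 2350 bp covered 4.41% of 53.2 kb (chr12:87729251-87782500), and 1 interval of 50 bp stood apart.

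Within the dense cluster of Esrrb, 50% of the interval bases of the window lay in 26.0 kb (chr12:87822551-87848550), 14.1% of its length. The 2 widest intervals of the window sat side by side there. The first, 2500 bp and the widest of all 169, lay at chr12:87843001-87845500 and was followed after 250 bp by one of 2000 bp at chr12:87845751-87847750. Only 87 of the 92549 intervals of the list were as wide as the first (0.094%), and 214 as wide as the second (0.231%). The third, 1050 bp at chr12:87804951-87806000, lay near the other edge of the cluster. In gene order on GRCm38.p6, the protein-coding genes on either side of Esrrb are Gpatch2l and Vash1.

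At Tfcp2l1 most of the intervals lay in 1 cluster of 30.9 kb. At the 12500 bp distance this cluster (chr1:120518651-120549500) held 21 of the 30 intervals and 8200 bp, 26.6% of its length, and 1.25% of the clusters of the list had as many bases or more. When only intervals less than 5 kb apart were joined, a distance at which the Esrrb intervals made 9 blocks, the Tfcp2l1 intervals made 6. At that distance the main block was 11.4 kb long (chr1:120538101-120549500), held 13 of the 30 intervals and was covered to 51.8%. A block of 8 intervals lay before it (chr1:120518651-120526800, covered to 28.2%) and a block of 6 after it (chr1:120583951-120592350, covered to 16.7%), with 3 lone intervals of 50 bp. The widest interval, 1750 bp at chr1:120542701-120544450, was in the main block, the second (1100 bp, chr1:120522601-120523700) was in the earlier block, and the third (650 bp, chr1:120541551-120542200) was again in the main one. Here 50% of the interval bases lay in 8.55 kb, the shortest such stretch of the 4 loci. Clasp1 and Gli2 are the neighbouring protein-coding genes in gene order.

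At Tbx3 all 45 intervals belonged to 1 cluster at the 12500 bp distance, and it ran past the window. None of the 13 bins of 5 kb in the window was empty, against 13 of 37 at Esrrb, 8 of 20 at Tfcp2l1 and 5 of 12 at Prdm14. The 3 widest intervals were 2050 bp at chr5:120118651-120120700, 1600 bp at chr5:120130351-120131950 and 1050 bp at chr5:120136751-120137800, spread over the middle of the window. At 12500 bp the cluster spanned 135.0 kb (chr5:120028851-120163600), beginning 66.1 kb before the window and ending 3.60 kb after it. It held 84 intervals with 27150 bp, the most interval bases of any cluster on chromosome 5 and the sixteenth most in the list. Its 39 intervals outside the window, which are not members, held 13600 of these bases, so the rank is that of the cluster and not of the window. Of the 39, 36 lay before the window, and these included a pair of 2500 bp (chr5:120033101-120035600 and chr5:120038001-120040500) wider than any inside. At the 5 kb distance the cluster broke up, and 2 blocks touched the window: chr5:120093901-120141250, which began 1.10 kb before it and held 40 intervals, and chr5:120148401-120163600 with 9. In gene order the long noncoding RNA genes Gm16064 and Tbx3os2 adjoin Tbx3, and the protein-coding neighbours are Med13l and Tbx5; which of these genes the outer intervals lie in was not analysed here.

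At Prdm14 the intervals lay in the lower-coordinate part of the window, and the last 23.0 kb held none. The 2 main blocks at the 5 kb distance were chr1:13065051-13087050, with 26 intervals covering 22.3% of 22.0 kb and beginning 14.9 kb before the window, and chr1:13093101-13097650, with 5 intervals covering 49.5% of 4.55 kb. Most of the 26 intervals of the first block lay before the window and are not members. The widest interval was 1350 bp (chr1:13094401-13095750), followed by 2 of 600 bp (chr1:13085001-13085600 and chr1:13093501-13094100). At the 12500 bp distance all 17 intervals belonged to a cluster of 42, of which 25 lay before the window and had a median width of 100 bp. The protein-coding neighbours in gene order are Slco5a1 and Ncoa2, a nuclear receptor coactivator gene.

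The adjoining windows of the same length separated the loci into 2 pairs. Tfcp2l1 and Esrrb stood out from both sides. At Tfcp2l1 the counts were 0 before, 30 inside and 4 after, and at Esrrb 12, 77 and 21. Tbx3 had 35 intervals before, 45 inside and 4 after, and coverage before it was 18.7%, close to the 20.8% inside. Prdm14 had more intervals before (25) than inside (17) and 0 after, but its own intervals covered more, 8.25% against 5.83%. For Tbx3 and Prdm14 the density of the window was therefore shared with the stretch on its lower-coordinate side.

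**Figure D3:**
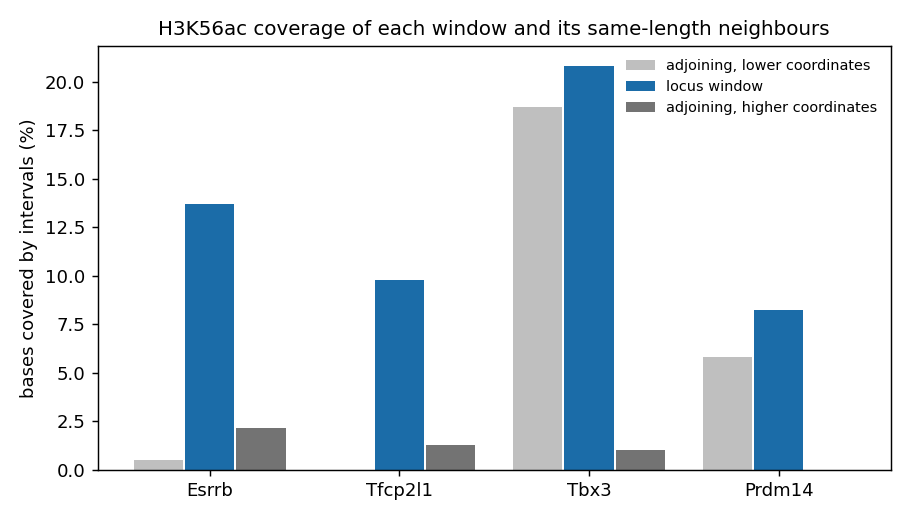
Bases covered by H3K56ac intervals (%) in each locus window (blue) and in the adjoining windows of the same length at lower (light grey) and higher (dark grey) coordinates, 1 library without error bars. Coverage before the Tbx3 window was 18.7%, near the 20.8% inside, while at Tfcp2l1 it was 0 before and 1.25% after.

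Intervals at the 4 loci were wider than those of the list as a whole. Their median width was 200 bp and their mean 317 bp, against 100 and 182 bp in the whole list, which includes them. By locus the median was 250 bp at Esrrb, 200 bp at Tfcp2l1 and 150 bp at Tbx3 and Prdm14, and the mean lay between 291 bp (Prdm14) and 330 bp (Esrrb). Intervals of 500 bp or more were 29 of 169 (17.2%, against 6.98% of the list) and held 52.2% of the members' bases (31.9% in the list). Those of 1000 bp or more were 10 of 169 (5.92%, exact binomial 95% interval 2.87 to 10.6, against 1.55%): 4 at Esrrb, 3 at Tbx3, 2 at Tfcp2l1 and 1 at Prdm14. For single loci the interval was 1.43 to 12.8 at Esrrb, 1.40 to 18.3 at Tbx3, 0.818 to 22.1 at Tfcp2l1 and 0.149 to 28.7 at Prdm14. Each of these included the list's 1.55%, so the excess of this class was seen beyond counting error only with the loci pooled. Intervals of 50 bp, the shortest in the list, were 33 of 169 (19.5%, 13.8 to 26.3, against 30.7%). By locus they were 13.0% at Esrrb (6.41 to 22.6), 23.3% at Tfcp2l1 (9.93 to 42.3), 26.7% at Tbx3 (14.6 to 41.9) and 23.5% at Prdm14 (6.81 to 49.9). Only the Esrrb interval excluded the list's 30.7%. Esrrb has the most members, and its interval overlaps those of the other loci, so the loci were not told apart in this share. Width was not a part of the rule, but members share 4 neighbourhoods, so these binomial intervals are too narrow and no test was made.

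**Figure D4:**
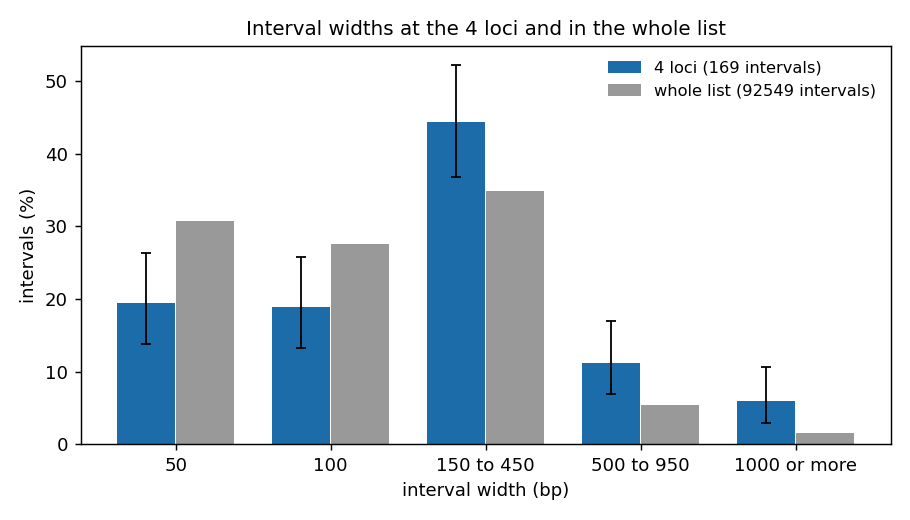
Share of H3K56ac intervals (%) by width class in bp at the 4 loci (blue, 169 intervals, error bars are exact binomial 95% intervals) and in the whole list (grey, 92549 intervals). The 50 bp class is 19.5% at the loci and 30.7% in the list, and the class of 1000 bp or more 5.92% and 1.55%.

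Spacing inside the windows was short at each locus, which restates the interval density given above and is not a separate property. The gaps of the whole list also include those across long stretches without intervals. The median gap between neighbouring intervals was 400 bp at Esrrb, 425 bp at Tbx3, 550 bp at Tfcp2l1 and 700 bp at Prdm14, against 1550 bp in the whole list. Gaps under 1 kb were 55 of 76 at Esrrb, 31 of 44 at Tbx3, 19 of 29 at Tfcp2l1 and 10 of 16 at Prdm14. Whether closely spaced intervals are separate sites or pieces of 1 broader site cannot be told apart in a list without signal.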

How the data were processed

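One H3K56ac ChIP library was analysed as the interval list that the authors deposited, with 3 columns (chromosome, start, end) and no header. The submitters' processing notes name Bowtie and the build mm9; for the version, the interval caller, the calling threshold and the part played by the input library, nothing is given in the sources used here. Tested on the file, 0 intervals were off a 50 bp grid, with starts counted from 1 and ends included, and the smallest gap was 150 bp. Interval bases were clipped to the window. The 4 windows, the members and the measures were chosen with earlier results of these data known; random windows were replaced by a count of all windows at 1 kb steps. Named intervals are the 3 widest of each window; those outside the windows, the blocks and the 5 kb bins were chosen after their values were seen. Gene order and promoters came from RefSeq (GRCm38.p6) by symbol, with no coordinate converted. Window counts and clusters were checked on simulated data. Alternatives merged intervals, filtered widths, moved window edges or changed the windows compared. The tools were scipy 1.17.1, pandas 2.3.3 and numpy 2.4.6 under Python 3.11.15, with matplotlib 3.10.9 for plots.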

Additional observations from a re-analysis of the deposited data

How the results depend on the processing

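Of 186 alternative values, 120 stayed close to the reported one (within 1.5 times for counts and bases, otherwise within its counting interval, with rank shares taken over windows end to end) and 66 moved. Each fold stayed above 1. For rank shares that interval is wide, and large changes in either direction counted as close. By bases, windows of all autosomes gave 0.139% for Tbx3 (0.0442% as reported) and 0.137% for Esrrb (0.263%). Merging under 500 bp gave Esrrb 0.655% by count (0.269%). Merging intervals under 500 bp apart left 37 intervals at Esrrb, 22 at Tbx3 and 10 at Prdm14, with density folds of 9.66 at Esrrb and 10.5 at Tbx3, and 0.441% (Tbx3) and 2.90% (Prdm14) of windows at their count or above. Merging under 1000 bp, for Esrrb, Tfcp2l1, Tbx3 and Prdm14 in turn, left 22, 11, 14 and 7 intervals, 47700, 18900, 26050 and 10101 covered bases and 1.37%, 2.79%, 0.605% and 3.13% of windows at the count or above, with folds of 7.29, 6.78 and 8.46 at the first 3. Merging removes more intervals where they are denser by its own construction. Intervals wider than the list's median numbered 50, 18, 27 and 9, with folds of 23.5, 15.3 and 24.8 at the first 3. Those of at least 500 bp numbered 13, 6, 6 and 4, covered 12550, 5300, 7100 and 3050 bases and gave folds of 34.3, 29.2, 41.3 and 32.3, with count shares of 0.833% (Tfcp2l1), 0.316% (Tbx3) and 0.976% (Prdm14). Windows widened by 25 kb on each side gave Tfcp2l1 shares of 3.26% by count and 1.27% by bases and a fold of 7.01, Tbx3 a share of 0.316% and a fold of 11.2, and Prdm14 37 intervals, 7800 bases and a share of 0.922%. The folds of Esrrb (12.3) and Prdm14 (11.8) then lay above that of Tbx3. Windows narrowed by 10% of their length on each side left Prdm14 with 3151 bases and shares of 2.74% by count and 1.92% by bases. Against windows with at least 1 interval only, the shares were 3.28% by count and 1.29% by bases for Tfcp2l1 and 6.09% and 3.59% for Prdm14. End-to-end windows gave 0% by count for Tbx3. The Tbx3 window itself was not among them, and at 1 kb steps 84 windows reached its count. Windows of all autosomes gave 2.80% by count for Prdm14. Clusters touching the window, 3 at Esrrb, 4 at Tfcp2l1 and 1 at Tbx3 and at Prdm14, became 9 (Esrrb), 2 (Tbx3) and 4 (Prdm14) at a joining distance of 5 kb, and 1 at Esrrb and at Tfcp2l1 at 25 kb. Where no cause is named, the cause was not tested. Leaving out windows that overlap the locus, and the ratios between loci with widened windows, were added after the data were examined. Their 14 values stayed within their counting intervals, which does not mean an unchanged order or size. Tfcp2l1 over Prdm14 turned from 1.06 to 0.595, and Tbx3 over Prdm14 fell from 2.44 to 1.42. With 1 library and no reads, weak sites missed by the caller cannot be told from sites without H3K56ac, and copy number, mappability and the input signal at the loci were not analysed here. No paired analysis was possible because there is 1 library per group and the input library was not analysed here.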

Other observations

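The cluster with the most interval bases in the whole list, chr12:88109201-88289150 with 130 intervals and 66450 bp, lies on the same chromosome as Esrrb, 234.0 kb past the end of its window. It is one of the 2 other places on chromosome 12 with as many intervals as the Esrrb window in the same length, and it was found after the values were seen. On chromosome 1, which carries Tfcp2l1 and Prdm14, the cluster with the most interval bases was chr1:134085451-134196100, with 73 intervals and 24950 bp, far from both genes. The genes at these clusters were not analysed here.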
